A study of Graphilbum sp. with 6 samples.

Results

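The subject is a set of 71 transcripts of oxidases and oxygenases in hyphae of Graphilbum sp., an ophiostomatoid fungus: laccases, cytochromes P450, ring-cleaving dioxygenases, phenol hydroxylases and related enzymes. They were chosen by words in the best-hit description of each assembled transcript (laccase, P450, monooxygenase, dioxygenase, catechol, protocatechuate, salicylate, phenol, benzoate, vanill, multicopper oxidase or glucose-methanol-choline), among the 4613 features whose best hit lies in Sporothrix, Grosmannia, Ophiostoma or Esteya. The whole table holds 26694 features. Of the 71, 33 had a best hit in Grosmannia, 30 in Sporothrix and 8 in Ophiostoma. A best hit gives the nearest named protein and does not identify the source organism.

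The study asked how the fungus responds to the pine wilt nematode Bursaphelenchus xylophilus, which causes wilt in pines and also feeds on fungal hyphae. In the nematode group, hyphae were kept with about 300 nematodes for 24 h (3 libraries), and the control group consists of hyphae labelled 24 h alone (3 libraries). Both groups came from potato dextrose agar cultures grown at 28 °C for 5 days and washed in 0.1 M phosphate-buffered saline. The control samples are called wild type and the replicates biological, without a word on separate cultures, so p-values measure only the spread between these libraries, which may be technical. The treatment text is the same for all 6 libraries, and their titles give the groups.

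Laccases are copper enzymes that oxidize phenols, and fungi use them on lignin, on toxic plant phenolics and in pigment formation. Cytochromes P450 are heme enzymes that insert oxygen into fatty acids, terpenes and aromatic rings, with electrons from a reductase. Hydroxylases prepare aromatic rings, dioxygenases then open them, and the products pass through the beta-ketoadipate or homogentisate route into central metabolism. Relatives of this fungus live in conifer wood that is rich in phenolics and terpenes.

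Expression was deposited as TPM, a length-scaled share of all transcripts in a library, so read depth and counting intervals are unknown. Features of the 4 genera took 28.7% to 39.4% of TPM in the nematode libraries and 68.5% to 70.0% in the controls. Features with at least 1 TPM in every nematode library and under 1 TPM in every control took 39.9% to 53.7% of TPM with nematodes. Each library was therefore divided by the median ratio of the features of the 4 genera, and the resulting values are called rescaled TPM. In such bulk RNA, fewer cells and less RNA per cell cannot be told apart. Control replicate 3 stood apart: over the features of the 4 genera its log2 values correlated at 0.9617 and 0.9593 with control replicates 1 and 2, which correlated at 0.9917 with each other. The 27 features found by terms for hyphal proteins (chitin synthase, septin, tropomyosin, actin, tubulin, hydrophobin) summed to 6083 to 6370 rescaled TPM with nematodes and 6047 to 7148 in controls, and none of 26 tested passed the test. The 3 features described as conidial or sporulation proteins summed to 208 to 279 rescaled TPM with nematodes and 223 to 441 in controls.

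A laccase, a glucose-methanol-choline oxidoreductase and a pair of cytochromes P450 were higher in the hyphae kept with nematodes. They rose 1.64-fold to 3.07-fold in mean rescaled TPM. No member passed as lower. Of the 71, 69 had at least 1 rescaled TPM in at least 3 libraries and were tested by limma on log2(rescaled TPM + 1), a scale that understates the fold change of features with low TPM. Calls were made at an adjusted p under 0.05, with adjustment over all 4568 features tested. The 4 calls are 5.8% of the members tested, where 0.613% of all features tested were called higher (28 features), 0.0438% lower (2 features) and 0.657% either way. At an unadjusted p under 0.05 there were 13 members, or 18.8%, where all features had 10.8%. The members' median log2 fold change was 0.00 and that of all features tested was -0.03.

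Laccase TRINITY_DN415_c0_g1 had 41.6, 46.0 and 55.1 rescaled TPM in the nematode libraries, against 14.6, 17.0 and 14.9 in the controls. Every nematode library was above every control, and the means were 47.5 ± 6.89 and 15.5 ± 1.30 (SD, n = 3 each). The log2 fold change was 1.55 ± 0.14 SE (95% interval 1.22 to 1.88, limma adjusted p = 0.00695). It passed under each of the 6 omissions of 1 library, with limma adjusted p from 0.00257 to 0.0467. In TPM as deposited it had 12.2, 20.0 and 21.9 with nematodes and 9.73, 10.9 and 9.99 in controls, and it was the member called higher in that fit too (log2 fold change 0.72, limma adjusted p = 0.0220).

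The other feature described as a multicopper oxidase was an iron transport protein of the Fet3 type, a ferroxidase that in yeast works with an iron permease at the plasma membrane. TRINITY_DN2179_c0_g1 had 4.17, 5.37 and 2.79 rescaled TPM with nematodes and 5.89, 6.44 and 35.9 in controls. Its high mean in controls came from control replicate 3. The log2 fold change was -1.31 ± 0.64 SE with all libraries and -0.52 without control replicate 3, and neither passed (limma adjusted p = 0.538 and 0.211).

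Glucose-methanol-choline oxidoreductases are flavin enzymes, among them aryl-alcohol and glucose oxidases, that oxidize alcohols and release hydrogen peroxide. TRINITY_DN807_c2_g1 had 38.5, 56.2 and 42.5 rescaled TPM with nematodes and 18.3, 16.1 and 17.2 in controls. The groups were far apart relative to the spread in the controls, with a log2 fold change of 1.35 ± 0.16 SE (95% interval 0.96 to 1.73, limma adjusted p = 0.0208). The call was lost without nematode replicate 1 or 3 (limma adjusted p = 0.0728 and 0.113) and without control replicate 1 or 2 (0.0803 and 0.0894), with log2 fold changes of 1.19 to 1.46 over all 6 omissions. The second such feature, TRINITY_DN20173_c0_g1, had 12.8, 14.6 and 15.2 with nematodes and 8.54, 9.87 and 16.3 in controls. Its groups overlapped through control replicate 3, and it passed only without that library (log2 fold change 0.58, limma adjusted p = 0.0472, against 0.32 and 0.712 with all).

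**Figure D1:**
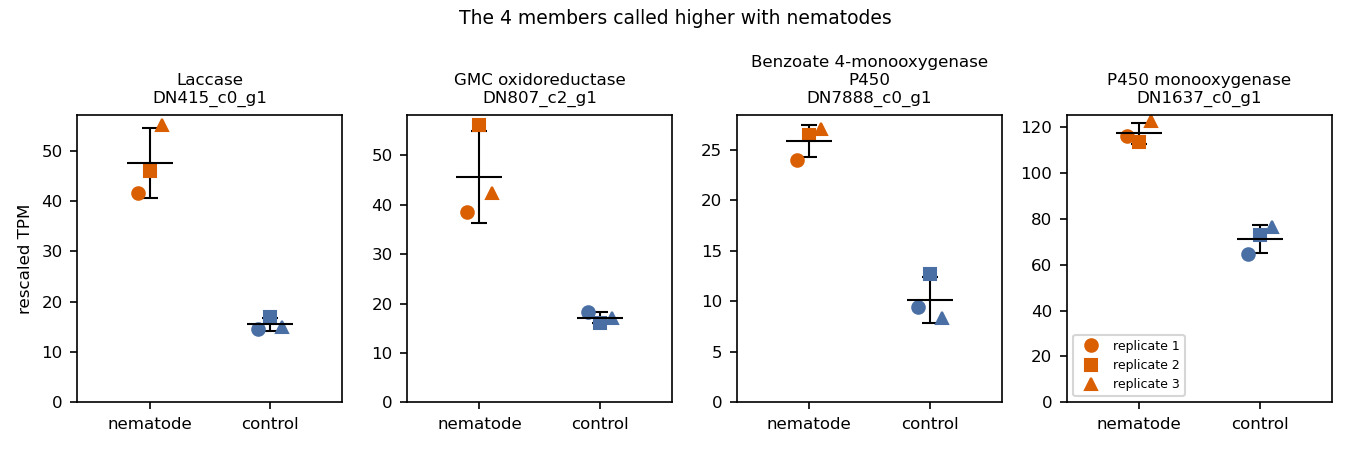
Rescaled TPM (y axis, from 0) of the 4 members called higher, in 3 nematode and 3 control libraries, with bars for the mean and SD. In each panel the nematode libraries lie above all controls, for laccase at 41.6 to 55.1 against 14.6 to 17.0.

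Of 12 cytochromes P450, 2 rose and 10 did not pass, with log2 fold changes from -0.51 to 1.29 and mean levels over all libraries of 2.84 to 94.2 rescaled TPM. TRINITY_DN7888_c0_g1 was described as a benzoate 4-monooxygenase, an enzyme that in other fungi hydroxylates benzoate at the ring position opposite the carboxyl group. It had 24.0, 26.5 and 27.1 rescaled TPM with nematodes and 9.42, 12.7 and 8.34 in controls, a log2 fold change of 1.29 ± 0.17 SE (95% interval 0.88 to 1.70, limma adjusted p = 0.0341). Nematode libraries stood above all controls here as well. The other 2 features of that description did not pass: TRINITY_DN7420_c0_g1 averaged 20.1 ± 4.36 with nematodes and 20.1 ± 3.80 in controls (SD, n = 3 each). TRINITY_DN13498_c0_g1 had 6.43, 8.31 and 6.27 with nematodes and 20.7, 3.51 and 1.76 in controls, and the controls ranged more widely than the nematode libraries.

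The most abundant P450, TRINITY_DN1637_c0_g1, had 116, 113 and 122 rescaled TPM with nematodes and 64.4, 73.0 and 76.3 in controls. It had the smallest rise of the 4 and the smallest standard error, with a log2 fold change of 0.71 ± 0.10 SE (95% interval 0.47 to 0.95, limma adjusted p = 0.0381). Its substrate is not given by the description. A second feature of the same assembly component, TRINITY_DN1637_c0_g2, had 5.44, 3.42 and 6.77 with nematodes and 7.87, 6.24 and 8.88 in controls. Reads could be shared between such features, and their sum was 121, 117 and 129 with nematodes and 72.3, 79.3 and 85.2 in controls, still without overlap. Among the other P450s, TRINITY_DN1504_c1_g2 had 82.0, 81.0 and 86.0 with nematodes and 77.7, 75.5 and 70.5 in controls, and a log2 fold change of 0.15 (95% interval -0.06 to 0.37).

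Both P450 calls were lost under most omissions of 1 library. TRINITY_DN7888_c0_g1 was lost without nematode replicate 1, 2 or 3 (limma adjusted p = 0.170, 0.194 and 0.190) or control replicate 1 (0.129), and kept without control replicate 2 or 3 (0.0287 and 0.00756). TRINITY_DN1637_c0_g1 was lost without nematode replicate 1, 2 or 3 (0.206, 0.194 and 0.207) and control replicate 1 or 2 (0.202 and 0.150), and kept without control replicate 3 (0.00555). Their log2 fold changes under these omissions were 1.17 to 1.44 and 0.64 to 0.76. Without a mean-variance trend in limma, TRINITY_DN1637_c0_g1 had an adjusted p of 0.0641.

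In TPM as deposited, where features of the 4 genera had a median log2 fold change of -0.82, the P450 TRINITY_DN1637_c0_g1 had -0.11 (limma adjusted p = 0.597) in place of 0.71. The benzoate 4-monooxygenase TRINITY_DN7888_c0_g1 had 0.48 (limma adjusted p = 0.0818) and the oxidoreductase TRINITY_DN807_c2_g1 had 0.52 (limma adjusted p = 0.108). In that fit over all features, 42 of 65 members tested were lower and 1 higher, where 25.5% of 21817 features were lower and 61.4% higher. Among the features of the 4 genera tested there, 78.8% were lower and 0.471% higher. Nematode replicate 1 held the largest share of the features under 1 TPM in every control, and the log2 ratio of its deposited TPM to the mean of nematode replicates 2 and 3 had a median of 0.38 over those features (5th to 95th percentile -0.38 to 0.94) and -0.52 over features of the 4 genera (-0.90 to -0.18). It was -0.79 for the laccase, -0.88 for the oxidoreductase, -0.67 for the benzoate 4-monooxygenase and -0.53 for TRINITY_DN1637_c0_g1. The organism each of the 4 came from was not tested.

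**Figure D2:**
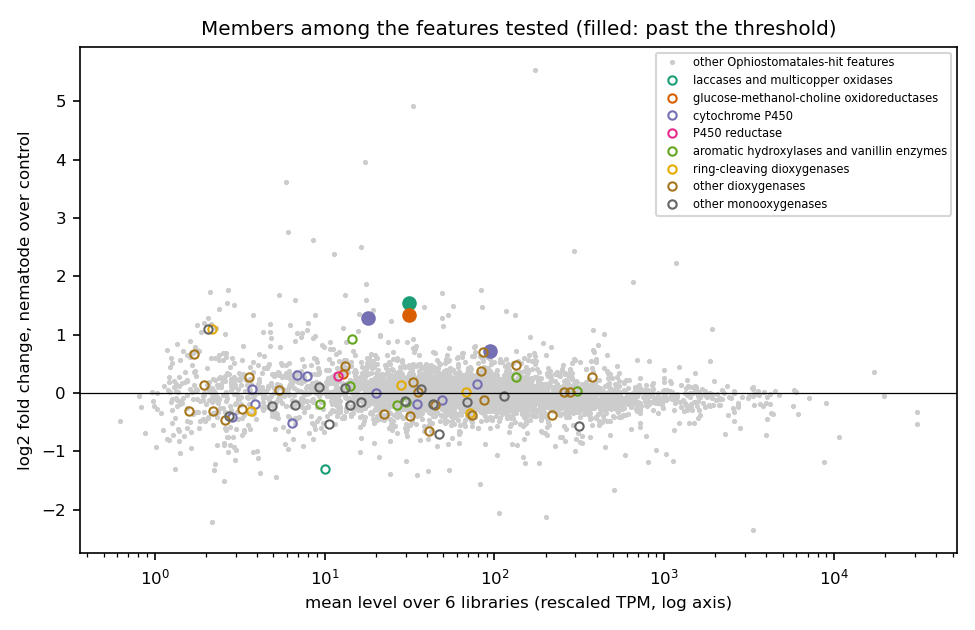
Log2 fold change, nematode over control (y axis), against mean rescaled TPM on a log axis, with the 69 members in colour among 4568 features tested in grey, filled where past the threshold. The 4 filled points lie at mean levels of 18.0 to 94.2 rescaled TPM.

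Electrons for P450s come from a reductase. The single feature described as a cytochrome P450 oxidoreductase was TRINITY_DN11159_c0_g1. The description does not settle whether it is this reductase or a P450 itself. It had 14.0, 14.8 and 11.4 rescaled TPM with nematodes and 10.1, 13.0 and 9.20 in controls, which overlapped (log2 fold change 0.30 ± 0.18 SE, 95% interval -0.13 to 0.72, limma adjusted p = 0.626).

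None of the 7 aromatic hydroxylases and vanillin enzymes passed, with log2 fold changes of -0.20 to 0.93. The most abundant, a pentachlorophenol 4-monooxygenase of the flavin hydroxylase family (TRINITY_DN4659_c0_g2), had 300.3, 334.0 and 285.9 rescaled TPM with nematodes and 260.4, 255.5 and 403.1 in controls. Control replicate 3 exceeded all other libraries there. A second feature of that description, TRINITY_DN14913_c0_g1, had 19.9, 15.7 and 21.9 with nematodes and 8.87, 12.3 and 7.81 in controls. Its groups did not overlap and its mean was 1.98-fold higher with nematodes, but the log2 fold change of 0.93 ± 0.21 SE had a limma adjusted p of 0.149 (0.0380 without control replicate 3). The third feature of that description, TRINITY_DN2131_c0_g1, had 8.69, 7.59 and 9.84 with nematodes and 11.5, 8.44 and 10.4 in controls, with overlap (log2 fold change -0.19, limma adjusted p = 0.749). The diphenol oxidase TRINITY_DN2883_c0_g2 had 157, 152 and 129 with nematodes and 130.4, 145 and 91.7 in controls with overlap between the groups (log2 fold change 0.27, 95% interval -0.16 to 0.71, limma adjusted p = 0.678). Diphenol oxidase is also a name for laccases, so this feature, grouped here by the word phenol, may be a second laccase, and it was more abundant in every library than the laccase that rose. Salicylate hydroxylase, which converts salicylate to catechol, was represented by TRINITY_DN2637_c1_g1 at 24.7 ± 4.10 with nematodes and 28.5 ± 3.83 in controls (SD, n = 3 each) and by TRINITY_DN11797_c0_g2 at 14.8 ± 4.36 and 13.5 ± 2.84. Vanillate O-demethylase oxidoreductase, of a family that removes methyl groups from lignin-derived vanillate in bacteria, averaged 28.4 ± 2.13 with nematodes and 32.1 ± 6.32 in controls (TRINITY_DN769_c1_g1).

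Ring-cleaving dioxygenases were 6 features, of which 5 could be tested and none passed. The intradiol enzymes, which open catechol-type rings between the hydroxyl groups, were the most abundant. TRINITY_DN19036_c0_g1 had 77.6, 58.4 and 54.3 rescaled TPM with nematodes and 86.5, 87.2 and 68.0 in controls, with an overlap through nematode replicate 1 and control replicate 3 (log2 fold change -0.35, 95% interval -0.75 to 0.05). TRINITY_DN1013_c1_g1 had 58.4, 70.4 and 73.3 with nematodes and 56.1, 54.3 and 95.7 in controls. Homogentisate dioxygenase opens the ring made from tyrosine, phenylalanine or phenylacetate. TRINITY_DN19955_c0_g1 averaged 28.9 ± 5.37 with nematodes and 27.1 ± 11.0 in controls (SD, n = 3 each). A second one, TRINITY_DN6697_c0_g2 at 3.23 ± 0.723 and 4.18 ± 0.521, shared its assembly component with a P450 described as phenylacetate 2-monooxygenase (TRINITY_DN6697_c0_g1, 2.28 ± 0.650 and 3.40 ± 1.15), an enzyme of the phenylacetate route to homogentisate in Aspergillus. Both were low in all 6 libraries and did not pass. The ring-opening features TRINITY_DN8334_c0_g1 and TRINITY_DN8334_c0_g2 were highest in nematode replicate 2, at 9.27 and 4.36, and listed at 0 in 3 and 5 of the 6 libraries. The second of them was not tested.

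**Figure D3:**
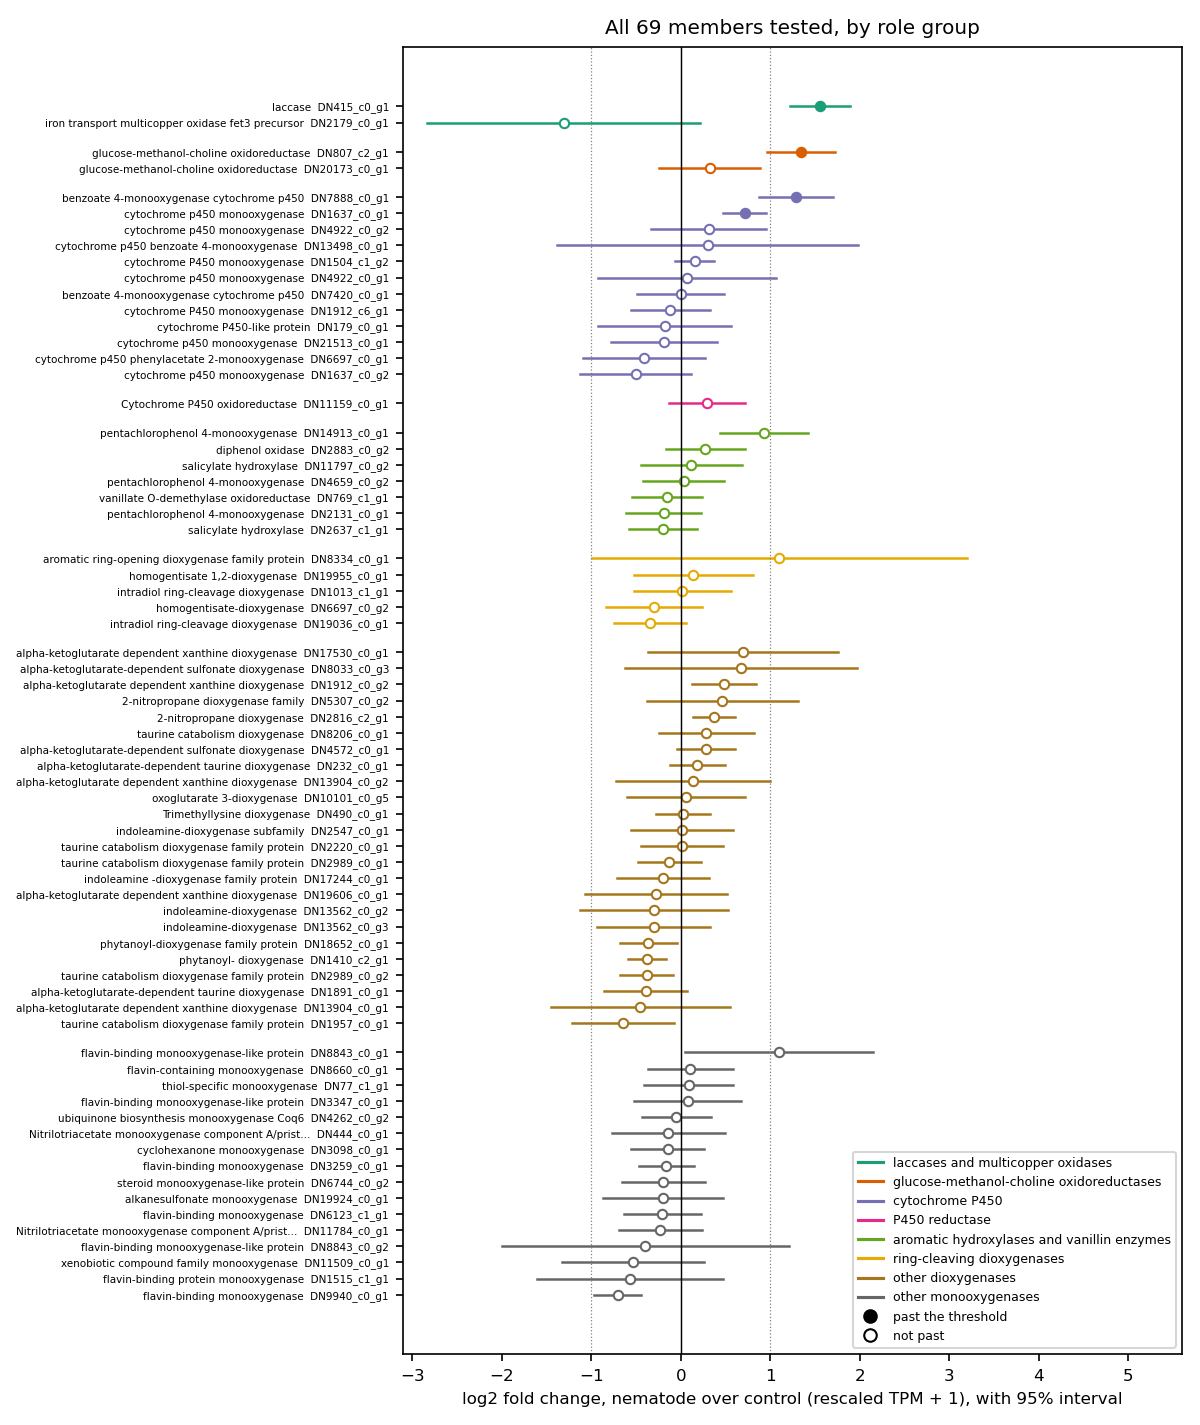
Log2 fold change, nematode over control, with its 95% interval (x axis) for the 69 members tested, by role group, filled where past the threshold. The 4 filled points lie above 0, and 48 intervals lie between -1 and 1.

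The 24 other dioxygenases were the most abundant group, and none of them passed, with 13 log2 fold changes above 0 and 11 below (-0.65 to 0.70). By description, 14 of these act on taurine, xanthine or sulfonates, so the words that chose the set reach beyond aromatic compounds. The most abundant member of the whole set, an alpha-ketoglutarate-dependent sulfonate dioxygenase (TRINITY_DN4572_c0_g1), had 409.5, 487 and 350.2 rescaled TPM with nematodes and 342, 332 and 345 in controls. Its groups did not overlap and its log2 fold change was 0.28 ± 0.14 SE (limma adjusted p = 0.534). Trimethyllysine dioxygenase of carnitine synthesis (TRINITY_DN490_c0_g1) averaged 258.9 ± 7.63 with nematodes and 256.7 ± 37.1 in controls (SD, n = 3 each). An indoleamine dioxygenase, of the family that opens the indole ring of tryptophan (TRINITY_DN2547_c0_g1), averaged 274 ± 35.2 and 281 ± 99.1.

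Other members of this group did not overlap between nematode and control libraries but missed the threshold. A phytanoyl dioxygenase (TRINITY_DN1410_c2_g1) had 187, 181 and 201 with nematodes and 246.8, 246.7 and 245.6 in controls, a log2 fold change of -0.38 ± 0.09 SE (limma adjusted p = 0.176, or 0.0279 without control replicate 3). A 2-nitropropane dioxygenase, a flavin enzyme that oxidizes nitroalkanes (TRINITY_DN2816_c2_g1), had 92.3, 99.96 and 89.5 with nematodes and 77.4, 67.0 and 73.2 in controls (log2 fold change 0.37, limma adjusted p = 0.224, or 0.0431 without control replicate 3). A xanthine dioxygenase, which in Aspergillus turns xanthine into uric acid (TRINITY_DN1912_c0_g2), had 149, 165 and 155 with nematodes and 132, 118 and 89.7 in controls (0.48, limma adjusted p = 0.313, or 0.33 and 0.0476 without control replicate 3). The taurine dioxygenase family feature TRINITY_DN1957_c0_g1 was the lowest of the group in log2 fold change, at -0.65 ± 0.24 SE (limma adjusted p = 0.398).

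Among the 17 other monooxygenases, mostly flavin enzymes, 16 were tested and none passed. They had 4 log2 fold changes above 0 and 12 below (-0.71 to 1.10), where 44.8% of all features tested were above 0. The nearest to the threshold of all members that missed it was the flavin-binding monooxygenase TRINITY_DN9940_c0_g1, with 36.2, 39.1 and 31.9 rescaled TPM with nematodes and 57.6, 60.4 and 58.2 in controls. The groups did not overlap, and the log2 fold change was -0.71 ± 0.11 SE (95% interval -0.97 to -0.45, limma adjusted p = 0.0529). It passed without control replicate 3 (0.0132), under a filter of 5 rescaled TPM (0.0483) and after quantile normalization (0.0482), and had 0.163 to 0.236 under the other 5 omissions. The most abundant of the group, TRINITY_DN1515_c1_g1, had 232, 236 and 217 with nematodes and 199.5, 269 and 725 in controls. Its log2 fold change was -0.57 with all libraries and -0.02 without control replicate 3. A xenobiotic compound monooxygenase (TRINITY_DN11509_c0_g1) had 9.51, 6.19 and 9.19 with nematodes and 16.0, 16.1 and 7.04 in controls, and passed only without control replicate 3 (log2 fold change -0.89, limma adjusted p = 0.0331, against -0.53 and 0.638). The low feature TRINITY_DN8843_c0_g1 had 1.54, 2.39 and 5.79 with nematodes and 0.853, 1.40 and 0.344 in controls (log2 fold change 1.10, limma adjusted p = 0.456). TRINITY_DN8843_c0_g2, of the same assembly component and description, had a log2 fold change of -0.40. Their sum was 1.54, 4.68 and 11.6 with nematodes and 2.77, 5.28 and 2.94 in controls, with overlap. TRINITY_DN13101_c0_g1 was listed at 0 in all libraries but nematode replicate 3, at 7.40, and was not tested.

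**Figure D4:**
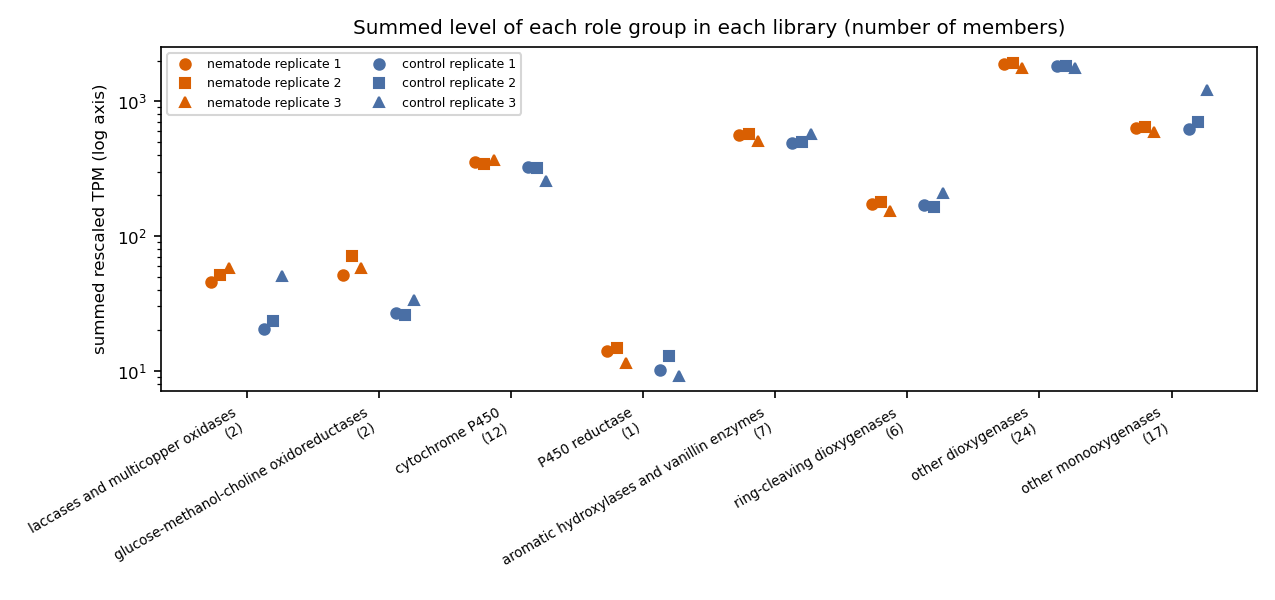
Summed rescaled TPM (y axis, log scale) of each role group in each library, with the number of members in brackets. Glucose-methanol-choline oxidoreductases had 51.3 to 70.8 in nematode libraries and 26.0 to 33.5 in controls, without overlap, and the other monooxygenases reached 1205 in control replicate 3.

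Over all 71 members, the summed level was 3741, 3805 and 3503 rescaled TPM in nematode replicates 1 to 3 and 3513, 3577 and 4112 in control replicates 1 to 3, and the groups overlapped. The cytochromes P450 summed to 352, 343 and 366 with nematodes and 327, 318 and 256 in controls. Laccase and the Fet3-type oxidase, without the diphenol oxidase, summed to 45.8, 51.3 and 57.9 with nematodes and 20.4, 23.4 and 50.8 in controls, a sum in which control replicate 3 came from the Fet3-type oxidase for the most part. The members were expressed at lower levels than the other features, with a median of 22.3 rescaled TPM over the 69 tested and 72.0 over the 4568. Their 95% intervals lay between -1 and 1 in 48 of 69 (69.6%), where 85.7% of all features tested did so. In groups that did not overlap, 10 members were higher and 6 lower with nematodes (14.5% and 8.7%, where all features had 10.5% and 7.79%). In 8 cases, a pair of members shared an assembly component (16 features), and such pairs may be parts of the same gene or of close copies. The exception is TRINITY_DN6697_c0_g1 and TRINITY_DN6697_c0_g2, which were described as different enzymes, a P450 and a homogentisate dioxygenase.

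Control replicate 3 was often the extreme library. It was outside the range of the other 5 libraries for 39 of the 69 members (16 above and 23 below), where it was outside for 58.5%, above for 30.3% and below for 28.2% of all features tested. Without it, limma called 8 members higher and 9 lower, where 7.38% and 6.83% of all features were called. All 4 rises were among them, with log2 fold changes of 0.76 to 1.53. The 4 added rises were the pentachlorophenol 4-monooxygenase TRINITY_DN14913_c0_g1, the second glucose-methanol-choline oxidoreductase, the 2-nitropropane dioxygenase and the xanthine dioxygenase given above. The 9 falls included 3 taurine dioxygenases (TRINITY_DN1891_c0_g1, TRINITY_DN2989_c0_g2 and TRINITY_DN2989_c0_g1; log2 fold changes -0.61, -0.50 and -0.29) and 2 P450s (TRINITY_DN179_c0_g1 at -0.55 and TRINITY_DN1912_c6_g1 at -0.33). The remaining 4 were a nitrilotriacetate monooxygenase (TRINITY_DN444_c0_g1 at -0.46) and the flavin-binding monooxygenase, xenobiotic compound monooxygenase and phytanoyl dioxygenase given above. All 17 had the same sign as with 6 libraries, and those of this paragraph outside the naming rule were chosen after their values were seen. What set control replicate 3 apart was not tested.

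**Figure D5:**
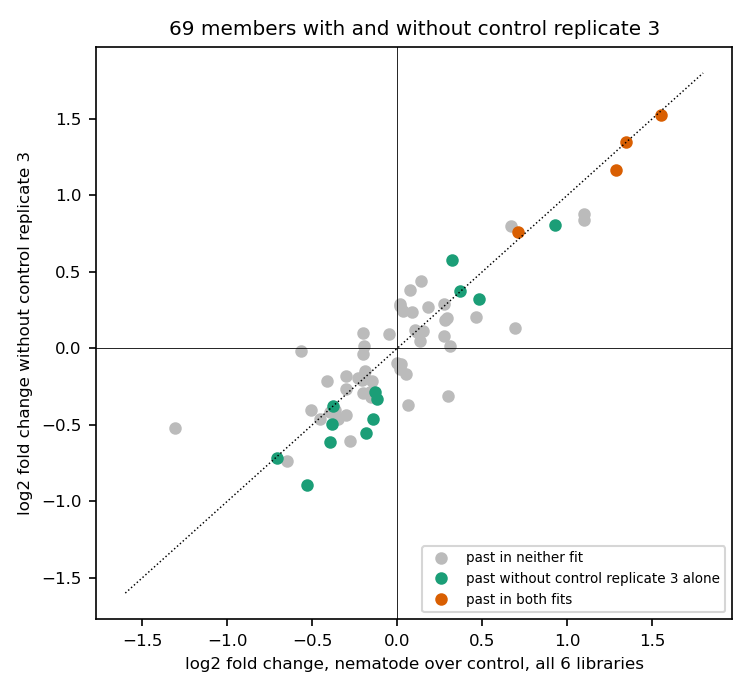
Log2 fold change, nematode over control, of the 69 members with all 6 libraries (x axis) and without control replicate 3 (y axis), with a dotted line of equality. The 4 members past the threshold in both fits lie near the line, and 13 more passed without that library.

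Partner genes of these pathways did not pass. Of all features tested, 44.8% had a log2 fold change above 0. Downstream of ring fission, 4 features were tested, all with log2 fold changes below 0 (-0.38 to -0.03). Among them were a carboxymuconolactone decarboxylase family protein of the beta-ketoadipate route (TRINITY_DN3160_c0_g1; 26.5, 28.6 and 26.4 rescaled TPM with nematodes and 29.3, 28.3 and 54.7 in controls) and a carboxy-cis,cis-muconate cyclase (TRINITY_DN903_c1_g1; 140, 132 and 129 with nematodes and 153, 156 and 147 in controls, limma adjusted p = 0.531). The 5 features of the cytochrome b5 list, 2 NADH-cytochrome b5 reductases and 3 cytochrome b561 proteins, had log2 fold changes of -0.13 to 0.12. The 25 features of the detoxification list had -0.19 to 0.16, but 17 of them matched by the word quinone and were mostly subunits of the respiratory chain. The remaining 8 were aldehyde dehydrogenases of several kinds, an epoxide hydrolase and a microsomal glutathione S-transferase. Of 8 other copper and amine oxidases, the low tyrosinase precursor TRINITY_DN11625_c0_g1, of an enzyme family that oxidizes phenols in melanin formation, had 2.09, 3.44 and 5.86 with nematodes and 0, 2.53 and 0.344 in controls (log2 fold change 1.44, limma adjusted p = 0.421). The drug export list held 17 features, some described only as ABC transporters, and 3 had a limma unadjusted p under 0.05. Of these 3, the multidrug resistance transporter TRINITY_DN15010_c0_g1 had 6.63, 4.66 and 7.17 with nematodes and 1.69, 3.01 and 2.78 in controls, without overlap (log2 fold change 1.04, limma adjusted p = 0.198). The others were lower, also without overlap: TRINITY_DN243_c0_g1 (log2 fold change -0.51, limma adjusted p = 0.224) and the low TRINITY_DN12361_c0_g1 (-1.03, limma adjusted p = 0.353). None of the 59 features was called by limma, where 0.657% of all features were called, and 4 of the 59 had an unadjusted p under 0.05, where 10.8% of all features did. Features of these lists named here were chosen after their values were seen.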

How the data were processed

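RNA-seq of hyphae was compared between 3 nematode and 3 control libraries, grouped by their titles. The authors deposited TPM for 26694 features, with group means that were not used. Feature names have the Trinity form. The sources used here name no assembler, aligner or quantification tool. Depth is unknown, so no counting interval is given.

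The 4613 features with a best hit in Sporothrix, Grosmannia, Ophiostoma or Esteya were divided by each library's median ratio and set to average 1000000 in total. Features with at least 1 rescaled TPM in at least 3 libraries (4568) were fitted as log2(rescaled TPM + 1), nematode minus control, with limma 3.58.1 in R 4.3.3 (lmFit, eBayes with trend), with Benjamini-Hochberg adjustment over all features tested and a threshold of 0.05. An exact permutation of 3 against 3 libraries cannot go below 0.1. Trimmed-mean (TMM) factors were computed directly, and the robust fit used statmod 1.5.0. The fit was tested on simulated data. A fit of all features used TPM as deposited.

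Members, role groups and companion lists were chosen with earlier results of these data known. Named were members past the threshold, the 8 of highest level, up to 3 per role group by smallest raw p, the highest of each role group, and the 5 largest rises and falls. The other members the report names fall outside this rule and were chosen after their values were seen. Actin was matched as a whole word, and septin and spore from the start of a word. The main fit treated the libraries as unpaired, and whether replicate numbers pair them could not be decided.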

Additional observations from a re-analysis of the deposited data

Results flagged for a closer look

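Keyword matches also occurred outside the 4 genera, in features the comparisons above did not use. Of 67 such features, 37 had at least 1 TPM in every nematode library and under 1 TPM in every control, a direction fixed by that definition. Over the whole table, with the 4 genera included, 13300 of 26694 features met the same definition, so it is no trait of these enzymes. The 37 summed to 366, 292 and 280.3 TPM in nematode replicates 1 to 3 (mean 312.8). In control replicates 1 to 3 they summed to 0.06, 0.17 and 0.07 TPM. By role group the 37 were 19 cytochromes P450, 5 other monooxygenases, 4 other dioxygenases and 4 features of the ring-cleaving group. There were also 2 described as cytochrome P450 oxidoreductases, 1 multicopper oxidase and 2 in the group of aromatic hydroxylases and vanillin enzymes. That last group was set by words, and TRINITY_DN17927_c0_g1 in it was described as a para-hydroxybenzoate polyprenyltransferase, which is not a hydroxylase. The 4 features of the ring-cleaving group summed to 90.7, 62.3 and 72.6 TPM with nematodes and to 0, 0 and 0.07 TPM in controls. Not all of them open rings: TRINITY_DN19017_c0_g1 and TRINITY_DN10509_c0_g1 were described as 4-hydroxyphenylpyruvate dioxygenases, which form homogentisate and leave its ring closed. The multicopper oxidase, described as an iron transport protein and not as a laccase, had 2.74, 3.12 and 2.34 TPM with nematodes. It was listed at 0 in every control. The organism of these transcripts was not tested.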

How the results depend on the processing

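Alternatives were a pseudocount of 0.1 or 5, no filter or one of 5 rescaled TPM, TMM, quantile or equal-total scaling, TPM as deposited over all features, a replicate block, limma without a trend or robust, and each library left out with the tested features kept. The 4 rises passed under both pseudocounts, both filters, the 3 rescalings and the robust fit. Members called higher numbered 1 with TPM as deposited and 1 to 8 with a library left out, and members called lower 1 at the filter of 5, 1 after quantile normalization, 42 with TPM as deposited and 0 to 9 with a library left out. Features of the 4 genera called higher numbered 48 with equal totals and 9 to 337 with a library left out, and those called lower 1 without a filter, 0 with equal totals, 3515 with TPM as deposited, 1 in the robust fit and 0 to 312 with a library left out.

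The same replicate numbers occur in both groups. Pairs with the same number had deviations that correlated at 0.148, -0.434 and -0.281, and pairs with different numbers at -0.231 to 0.414. With 3 libraries per group, such correlations cannot decide whether the numbers pair the libraries. With a replicate block, 0 members were called higher (laccase adjusted p = 0.0546) and, of the features of the 4 genera, 12 higher and 0 lower.

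With TPM as deposited, features called lower numbered 4 of 4 downstream of ring fission, 4 of 5 in the cytochrome b5 list and 25 of 25 in detoxification. Among other oxidases they were 6 of 8, and in the drug export list 12 of 17. In that fit 78.8% of the features of the 4 genera tested were lower. With a library left out, the cytochrome b5 list had 0 to 1 higher, other oxidases 0 to 2 lower and the drug export list 0 to 1 higher. Calls in these lists arose only without control replicate 3, where 7.38% of all features were called higher and 6.83% lower. The members' median log2 fold change was -0.068 after quantile normalization, 0.13 with equal totals, -0.77 with TPM as deposited and -0.094 to -0.031 with a library left out. In the same fits the features of the 4 genera tested had medians of -0.011, 0.11, -0.82 and -0.028 to -0.0029. Equal totals moved the log2 ratio of summed level to 0.13 for all members, 0.39 for P450s, 0.18 for other dioxygenases and 0.21 for aromatic hydroxylases (-0.02, 0.24, 0.04 and 0.07 in the rescaled values).

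Signs turned with TPM as deposited for TRINITY_DN1637_c0_g1 (-0.11), TRINITY_DN4572_c0_g1 (-0.55), TRINITY_DN4659_c0_g2 (-0.80), TRINITY_DN2547_c0_g1 (-0.82), TRINITY_DN490_c0_g1 (-0.81), TRINITY_DN1912_c0_g2 (-0.35), TRINITY_DN2883_c0_g2 (-0.55), TRINITY_DN11159_c0_g1 (-0.44), TRINITY_DN20173_c0_g1 (-0.42) and TRINITY_DN2816_c2_g1 (-0.45), where the features of the 4 genera had a median of -0.82. With a library left out, TRINITY_DN4659_c0_g2 ranged from -0.082 to 0.25, TRINITY_DN2547_c0_g1 from -0.13 to 0.29 and TRINITY_DN490_c0_g1 from -0.10 to 0.093. Where no value above shows a cause, the cause was not tested. Depth is unknown, so what it limits cannot be given.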

Other observations

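Some keyword matches with best hits outside the 4 genera had at least 1 TPM in every control. These 13 features were not rescaled, and their values are in TPM as deposited, where features of the 4 genera had a median log2 fold change of -0.82. The most abundant was a flavin-dependent monooxygenase with a best hit in Colletotrichum (TRINITY_DN3044_c0_g1), at 145, 215 and 242 TPM with nematodes and 442, 427 and 423 TPM in controls. A choline monooxygenase, of the first step from choline to glycine betaine in plants, had a best hit in Valsa (TRINITY_DN21732_c0_g1) and 120.0, 171 and 126 TPM with nematodes and 294, 278 and 372 TPM in controls. A steroid monooxygenase (TRINITY_DN14938_c0_g1) had 3.20, 10.2 and 4.87 TPM with nematodes and 85.1, 9.97 and 5.90 TPM in controls, where control replicate 1 was far above the rest.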
